A study of Mus musculus with 4 samples.

Results

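The Ly6 surface antigen genes *Ly6a*, *Ly6c1*, *Ly6c2*, *Ly6d*, *Ly6e* and *Ly6g* were taken by symbol from the expression values of mouse myeloid cells with and without a targeted deletion of PD-1. All 6 symbols were found once among the 24706 genes of each library. The rule for choosing them used gene names. *Ly6c1* and *Ly6c2* encode the antigen Ly6C and *Ly6g* encodes Ly6G, which the study stained on CD11b+ cells to separate monocytes from granulocytes. The question here was what the transcripts of these antigens and of their relatives did in the sequenced cells.

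Ly6 proteins are small cell surface proteins with a fold of disulphide-bonded loops, and they are held in the outer leaflet of the membrane by a glycosylphosphatidylinositol (GPI) anchor. In mouse blood-forming tissue they serve as markers of cell type. Ly6C is high on inflammatory monocytes and also present on granulocytes, Ly6G is largely restricted to the neutrophil lineage, and Ly6A, known as Sca-1, marks stem and progenitor cells. Ly6D marks early B lineage cells, and Ly6E is found on many cell types. *Ly6a*, *Ly6c2* and *Ly6e* are known to respond to interferons.

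The libraries were made from 2 samples labelled wt, the PD-1f/f controls of the study, and 2 labelled cko, from PD-1f/f; LysM-Cre mice, called the knockout libraries below. By the study's methods the mice carry LoxP sites around an exon of *Pdcd1*, the gene for PD-1, and Cre is expressed from the lysozyme M locus (*Lyz2*), which is active in monocytes, macrophages and granulocytes. The results section describes CD11b+ cells sorted from fetal liver at postnatal day 3, the methods name RNA from fetal livers at postnatal day 2 with wild-type controls, and the labels give only myeloid cells and the genotype. No source says whether a library holds 1 animal or several, so p-values measure the spread between these 4 libraries.

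The 4 libraries held between 17691505 and 22212407 counted reads. *Pdcd1* stood at 28.5 and 34.7 FPKM in the controls and at 17.1 and 21.4 FPKM in the knockout libraries, and *Lyz2*, the Cre locus, at 31306 and 32147 against 10422 and 8127 FPKM. The myeloid integrin gene *Itgam* (CD11b) and the leukocyte gene *Ptprc* (CD45) were present throughout, at 48.5 to 54.3 and 58.1 to 75.1 FPKM. Control replicate 2 alone held Y-linked transcripts (*Ddx3y* at 24.9 FPKM, and at most 0.0087 FPKM elsewhere) and lacked *Xist*, so that it differed in sex from the others. Knockout replicate 2 lay farthest from the controls on the leading principal component, which held 55.1% of the variance. Results for the tested members that rest on either library are given with and without it.

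*Ly6c1* and *Ly6c2* are near-identical copies, and their coding sequences are shown because the assignment of reads to each rests on the few bases that differ. In the GRCm38 annotation *Ly6c1* lies on chromosome 15, minus strand, from 75044018 to 75048830, and *Ly6c2* on the same strand from 75108158 to 75111970. *Ly6g* lies on the plus strand from 75155240 to 75159126. The first 300 coding bases of the principal transcripts are given 5′ to 3′ from the start codon. Capitals mark the bases at which *Ly6c1* and *Ly6c2* differ from each other, and in *Ly6g* the bases that differ from *Ly6c2* in their alignment.
Ly6c1: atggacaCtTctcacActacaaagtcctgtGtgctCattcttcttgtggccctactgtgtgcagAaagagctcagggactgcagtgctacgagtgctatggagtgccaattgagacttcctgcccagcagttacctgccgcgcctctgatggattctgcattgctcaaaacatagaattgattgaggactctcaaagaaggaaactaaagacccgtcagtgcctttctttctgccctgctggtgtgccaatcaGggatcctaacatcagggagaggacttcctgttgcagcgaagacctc
Ly6c2: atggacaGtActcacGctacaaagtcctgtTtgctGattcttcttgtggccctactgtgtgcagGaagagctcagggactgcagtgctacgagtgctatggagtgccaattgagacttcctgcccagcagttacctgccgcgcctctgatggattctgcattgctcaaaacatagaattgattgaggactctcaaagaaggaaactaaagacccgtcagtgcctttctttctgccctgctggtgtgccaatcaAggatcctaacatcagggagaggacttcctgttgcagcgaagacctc
Ly6g: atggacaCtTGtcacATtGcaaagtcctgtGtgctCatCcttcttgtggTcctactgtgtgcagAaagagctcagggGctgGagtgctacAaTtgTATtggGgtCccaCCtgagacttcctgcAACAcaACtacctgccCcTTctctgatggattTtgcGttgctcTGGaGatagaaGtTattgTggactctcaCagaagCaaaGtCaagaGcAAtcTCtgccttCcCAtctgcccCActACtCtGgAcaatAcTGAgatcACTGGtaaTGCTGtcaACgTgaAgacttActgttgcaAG
*Ly6c1* and *Ly6c2* were identical at 387 of 396 coding bases (97.7%). Counted from 1 at the A of the start codon, and with the *Ly6c1* base first, the differences were C8G, T10A, A16G, G31T, C36G, A65G, G254A, T327C and G376A, of which the last ones, from T327C on, lie beyond the stretch shown. The longest stretch without a difference was 188 bases. *Ly6g* was identical to *Ly6c2* at 317 of 405 aligned positions (78.3%). Over the principal transcripts, 32.6% of the 50-base windows of *Ly6c2* and 31.7% of those of *Ly6c1* also occurred in the other copy. At 100 bases the shares were 15.8% and 15.3%. Reads from such windows cannot be assigned to 1 copy, so the split between *Ly6c1* and *Ly6c2* is uncertain, whereas 0.448% of the 50-base windows of *Ly6g* and none of its 100-base windows occurred in another gene.

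The 6 genes covered a wide range of levels. Ordered by their mean over the 4 libraries, *Ly6c2* stood at 338 FPKM, *Ly6g* at 235, *Ly6e* at 68.0, *Ly6d* at 2.76, *Ly6a* at 0.676 and *Ly6c1* at 0.302 FPKM. The ranges of *Ly6c2* (315 to 359.9 FPKM) and *Ly6g* (143 to 351 FPKM) overlapped, as did those of *Ly6a* (0.397 to 1.16 FPKM) and *Ly6c1* (0.107 to 0.477 FPKM), whereas the other neighbours in this order were separate in every library. FPKM divides the reads of a gene by the length of all its annotated exons together. For *Ly6c2* this length was 2740 bases, because 1 annotated transcript of 2680 bases keeps an intron, whereas its principal coding transcript has 822 bases. Per kilobase of the principal transcript the mean level of *Ly6c2* was 1126 and that of *Ly6g* 235 on the same scale, and these no longer overlapped. This choice of length moves levels between genes and leaves the differences between libraries within a gene as they were.

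**Figure D1:**
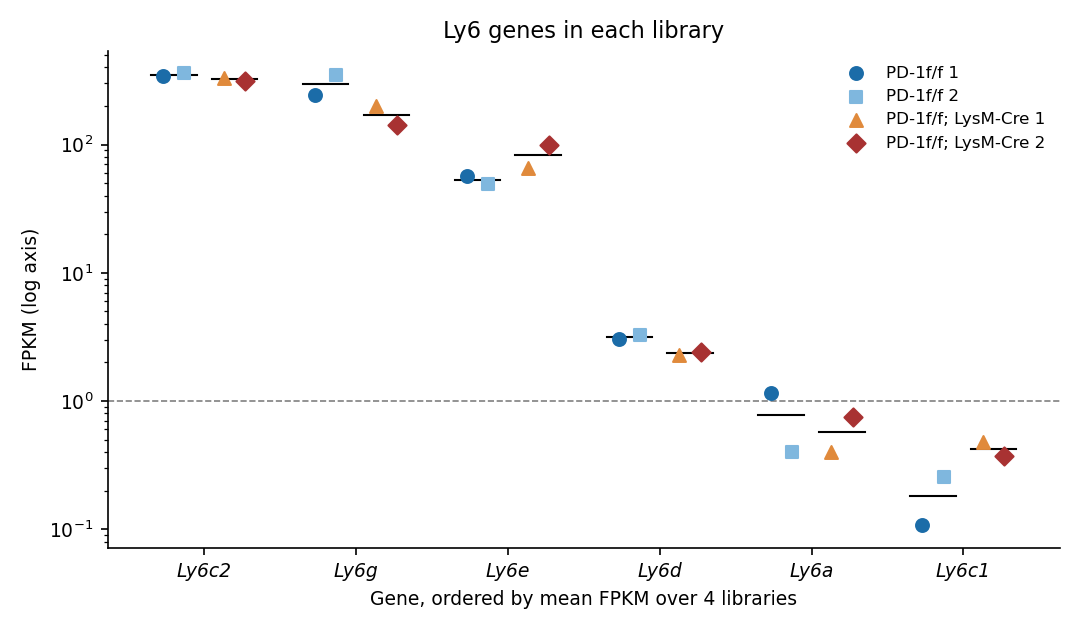
FPKM of the 6 Ly6 genes (log axis) in each of the 4 libraries, with PD-1f/f as the controls and PD-1f/f; LysM-Cre as the knockout libraries. Points are libraries, short black lines are group means (n = 2), and the dashed line is the mean level of 1 FPKM required for testing, which *Ly6a* and *Ly6c1* did not reach.

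*Ly6c2*, which carried nearly all Ly6C reads, differed little between the groups. It stood at 343 and 359.9 FPKM in the controls and at 333 and 315 FPKM in the knockout libraries, from 20876, 18559, 17118 and 15254 reads. Both knockout values were below both control values, by a small margin. The log2 fold change was -0.12 (SE 0.13), a ratio of 0.922 with a 95% interval from 0.736 to 1.16, and the adjusted p was 0.676 (limma). The interval therefore includes ratios on both sides of 1. The size and sign of this small value depended on the scaling. It was -0.22 with median-of-ratios factors and -0.36 with quantile normalization (unadjusted p = 0.0398, adjusted p = 0.311, limma). With erythroid and hepatocyte genes removed and the libraries brought to a common total, the value was 0.09, under a shift of the median of all tested genes from 0.092 to 0.27. Relative to the median of all tested genes *Ly6c2* was at -0.21 as deposited, -0.23 and -0.34 by the median-of-ratios and quantile scalings and -0.17 with those genes removed.

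Of the tested members *Ly6g* had the lowest knockout level relative to the controls. It stood at 245 and 351 FPKM in the controls and at 199.7 and 143 FPKM in the knockout libraries, from 5128, 6216, 3525 and 2383 reads. All control values lay above all knockout values, and each group spread widely, with a mean of 298 ± 74.6 FPKM in the controls and 171 ± 40.1 FPKM in the knockout libraries (SD, n = 2). The log2 fold change was -0.79 (SE 0.25), a ratio of 0.578 with a 95% interval from 0.378 to 0.884. The unadjusted p was 0.0201 and the adjusted p 0.245 (limma over 10779 genes), so the difference did not pass the test. The value was -0.53 without control replicate 2, the library of the other sex, and -0.55 without knockout replicate 2. In RNA from a mixed preparation, fewer granulocytes and less *Ly6g* RNA per granulocyte cannot be told apart.

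*Ly6c1*, the other Ly6C gene, was close to the limit of detection. It stood at 0.107 and 0.253 FPKM in the controls, from 4 and 8 reads, and at 0.477 and 0.371 FPKM in the knockout libraries, from 15 and 11 reads. The knockout values were the higher ones. As RPM (reads scaled to the library total) they were 0.180 (95% Clopper-Pearson interval 0.0491 to 0.461) and 0.425 (0.183 to 0.837) in the controls against 0.800 (0.448 to 1.32) and 0.622 (0.310 to 1.11), and the interval of each control library overlapped those of both knockout libraries. These intervals cover counting error only. The gene did not reach the mean of 1 FPKM needed for a test. Summed over the libraries it held 38 reads against 71807 for *Ly6c2*, and with copies this alike the 38 reads may belong to either.

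By cytometry the paper reports more Ly6C+ monocytes and fewer Ly6G+ granulocytes in the knockout mice. To set these antigens side by side, the level of *Ly6c1* plus *Ly6c2* was divided by that of *Ly6g* in each library. On the FPKM scale the ratio was 1.398 and 1.027 in the controls and 1.669 and 2.195 in the knockout libraries. The knockout ratios were the higher ones, and the gap between the groups, from 1.398 to 1.669, was smaller than the gap within either group. The mean log2 ratio was 0.26 ± 0.31 in the controls and 0.94 ± 0.28 in the knockout libraries (SD, n = 2), a difference of 0.68. The two-sided exact permutation test gave p = 0.333, which is the smallest value this test can give for 2 against 2 libraries, so it cannot pass 0.05 here. Per kilobase of the principal transcripts the ratio was 4.65 and 3.41 against 5.54 and 7.29, and the difference of the log2 ratios was 0.67. The shift followed the lower *Ly6g*, with a log2 fold change of -0.79, and was made smaller by *Ly6c2*, at -0.12. The *Ly6g* value thus had the direction reported for the Ly6G+ cells. *Ly6c2*, lower in both knockout libraries by a small margin, did not have the direction reported for the Ly6C+ cells. The ratio describes the RNA of a library and is not a count of stained cells, and its relation to the cytometry was not tested.

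**Figure D2:**
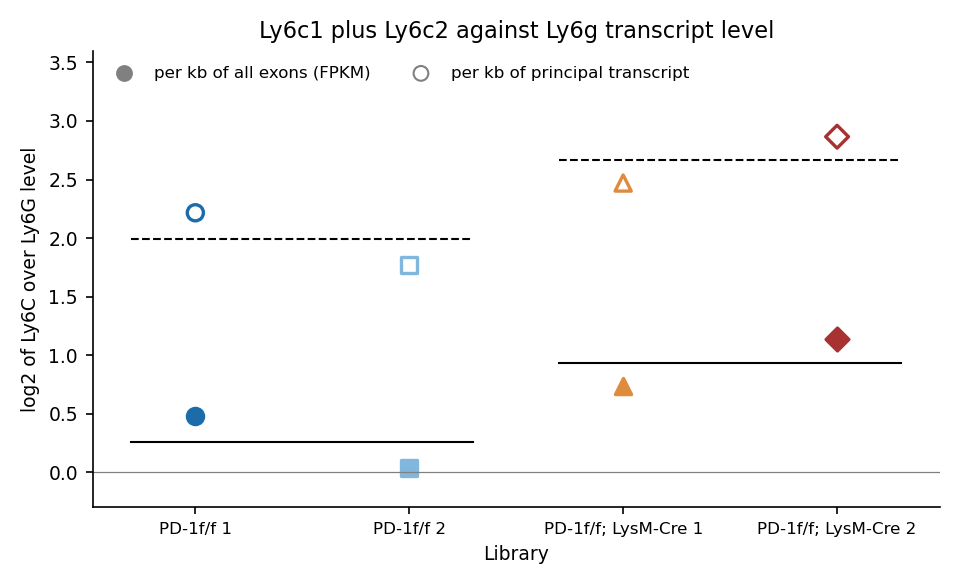
Log2 ratio of the summed level of *Ly6c1* and *Ly6c2* to that of *Ly6g* in each library. Filled points use FPKM and open points the level per kilobase of the principal transcript, horizontal lines are group means (n = 2), and the knockout libraries lie above the controls on both scales while the distance between the scales exceeds the distance between the groups.

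*Ly6e*, which encodes a widely expressed interferon-responsive antigen, went the other way. It stood at 57.4 and 49.0 FPKM in the controls and at 65.8 and 99.8 FPKM in the knockout libraries, from 4826, 3487, 4668 and 6681 reads. The knockout values were above the control values, and knockout replicate 2 stood apart. The log2 fold change was 0.60 (SE 0.23), a ratio of 1.52 with a 95% interval from 1.020 to 2.263, with an unadjusted p of 0.0426 and an adjusted p of 0.288 (limma). Without knockout replicate 2 the value was 0.31. That library also held the highest level of other interferon-responsive genes, such as *Gbp2*, a guanylate-binding protein, at 79.0 FPKM against 6.42 to 13.4 in the others, and *Cxcl10*, a chemokine, at 73.8 against 2.03 to 16.3 FPKM. Over the list of 32 interferon-stimulated genes the summed level was 826 and 629 FPKM in the controls and 800.0 and 1233 in the knockout libraries. Of its 30 tested genes 4 were higher and none lower at an unadjusted p under 0.05 (limma). Among all tested genes 11.4% were higher and 4.95% lower at that p. The median log2 fold change of the list was -0.023, and no gene passed adjustment. Without knockout replicate 2 the counts were 2 higher and 6 lower, and the median was -0.39. Their part in the *Ly6e* value was not tested.

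*Ly6d*, the B lineage member, was low in all libraries. It stood at 3.03 and 3.28 FPKM in the controls and at 2.29 and 2.43 FPKM in the knockout libraries, from 50, 46, 32 and 32 reads. The knockout values were the lower ones, with a log2 fold change of -0.30 (SE 0.19), a 95% interval from -0.78 to 0.18 and an adjusted p of 0.457 (limma). On the log2(FPKM + 1) scale the change of so low a gene is understated, and with a pseudocount of 0.1 the value was -0.40. Genes of the B lineage list were lower alongside it. Of its 11 tested genes 10 had a lower mean in the knockout libraries, 4 of them at an unadjusted p under 0.05, and the median was -0.50. Of all 10779 tested genes 4269 had a lower mean, and 4.95% were lower at that p. The B cell receptor component gene *Cd79a* stood at 16.4 and 21.6 FPKM against 10.8 and 12.7. The summed level of the list was 69.7 and 82.3 FPKM against 42.6 and 58.2, and its part in the *Ly6d* value was not tested.

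*Ly6a* showed no separation of the groups. It stood at 1.16 and 0.397 FPKM in the controls and at 0.399 and 0.751 FPKM in the knockout libraries, from 31, 9, 9 and 16 reads. Control replicate 1 was the highest and control replicate 2 the lowest, so both extremes lay in the same group, and the gene was below the level needed for a test. Genes of stem and progenitor cells, in which *Ly6a* is known as a marker, were low as well. Of that list 4 of 15 genes reached the filter, and the stem cell factor receptor gene *Kit* stood at 4.33 and 3.85 FPKM in the controls against 2.19 and 2.87. The summed level of the list was 21.4 and 21.9 against 17.0 and 15.9 FPKM.

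Of the 6 members, 4 reached the filter and none passed either threshold of the study. A log2 fold change of at least 1 with an adjusted p under 0.05 was met by 0 of 10779 tested genes (0%) in limma, of which 1768 had an unadjusted p under 0.05, and by 2 genes when voom was run on recovered reads, neither of them a member. A log2 fold change above 1 with an unadjusted p under 0.01 was met by 1.88% of the tested genes in the higher and 0.408% in the lower direction. At an unadjusted p under 0.05 alone 1 member (*Ly6e*) was higher, against 11.4% of all tested genes, and 1 (*Ly6g*) was lower, against 4.95%. The groups did not overlap for 1 tested member in the higher direction, against 33.6% of all tested genes, and for 3 in the lower direction, against 18.0%. A separation of 2 from 2 libraries was thus common among all genes, and *Ly6g* ranked 887 by its p-value.

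**Figure D3:**
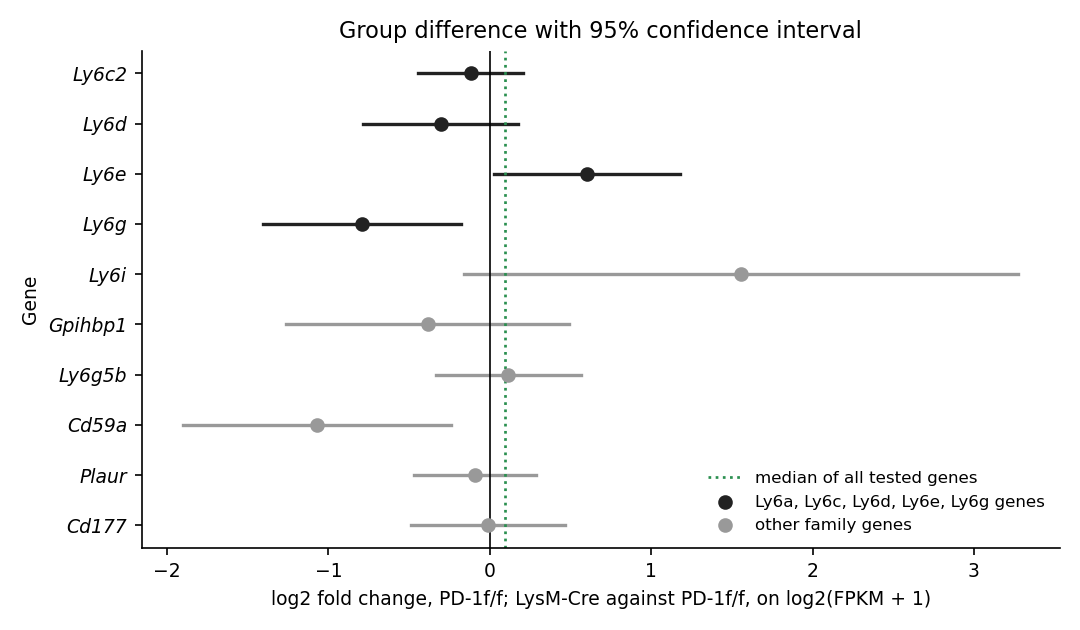
Log2 fold change of knockout against control libraries on log2(FPKM + 1) for the 4 tested Ly6 genes (black) and 6 further genes of the Ly6/uPAR family (grey), with 95% confidence intervals from limma and n = 2 libraries per group. The interval of *Ly6g* lies below 0 and that of *Ly6e* just above, before adjustment for 10779 tests, and the dotted line is the median of all tested genes at 0.092.

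The wider Ly6/uPAR family shares the fold described above. Of 45 listed symbols 22 were in the files, and besides the 4 tested members 6 reached the filter. The most abundant of them were the receptors of mature myeloid cells. *Cd177*, a neutrophil surface glycoprotein, stood at 1772 and 1927 FPKM in the controls against 2141 and 1570.1 (log2 fold change -0.011, SE 0.19). *Plaur*, the urokinase receptor, stood at 607 and 670.2 FPKM against 649 and 552 (log2 fold change -0.092, SE 0.15). For both genes the groups overlapped, and whether their differences depart from that of *Ly6g* was not tested. *Ly6g5b* was at 3.66 to 4.47 FPKM with overlapping groups.

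*Cd59a*, which encodes an inhibitor of the complement membrane attack complex, stood at 16.2 and 7.77 FPKM in the controls and 5.16 and 4.56 FPKM in the knockout libraries, with a log2 fold change of -1.07 (SE 0.33) and an adjusted p of 0.245 (limma). Without control replicate 1 the value was -0.59. The erythroid list was highest in that library as well, with a summed level of 3912 FPKM against 2468 in control replicate 2 and 1527 and 1611 in the knockout libraries, and its part in the *Cd59a* value was not tested. *Gpihbp1*, which anchors lipoprotein lipase on capillary endothelium, was also highest in control replicate 1, at 5.11 FPKM against 2.08 to 2.43 elsewhere.

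*Ly6i*, a close relative encoded next to *Ly6e*, stood out in knockout replicate 2. It stood at 1.79 and 0.965 FPKM in the controls and at 2.26 and 13.5 FPKM in the knockout libraries, from 46, 21, 49 and 277 reads. The log2 fold change was 1.56 (SE 0.69) with an adjusted p of 0.337 (limma), and without knockout replicate 2 it was 0.48. The same library held the highest *Ly6e*, *Gbp2* and *Cxcl10* levels.

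The members are clustered on chromosome 15 over 397 kb from *Ly6d* to *Ly6g*, in which 18 genes of the files lie. Levels were not shared along this stretch. *Ly6c2* at 338 FPKM lies 64.1 kb from *Ly6c1* at 0.302 FPKM, and *Ly6e* at 68.0 FPKM lies near *Ly6a* at 0.676 FPKM. Only 5 of the 18 genes had a mean above 10 FPKM. *I830127L07Rik*, which lies between *Ly6c2* and *Ly6g* and was singled out after its values were seen, was the most abundant of them. It stood at 636 and 738 FPKM in the controls and at 545 and 459.8 FPKM in the knockout libraries. Its log2 fold change was -0.45 (SE 0.16) with an adjusted p of 0.269 (limma), and like its neighbours *Ly6c2* and *Ly6g* it had non-overlapping groups with the lower values in the knockout libraries. Its annotated transcripts share 20 windows of 50 bases with *Ly6a* and 3 with *Ly6c2*.

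**Figure D4:**
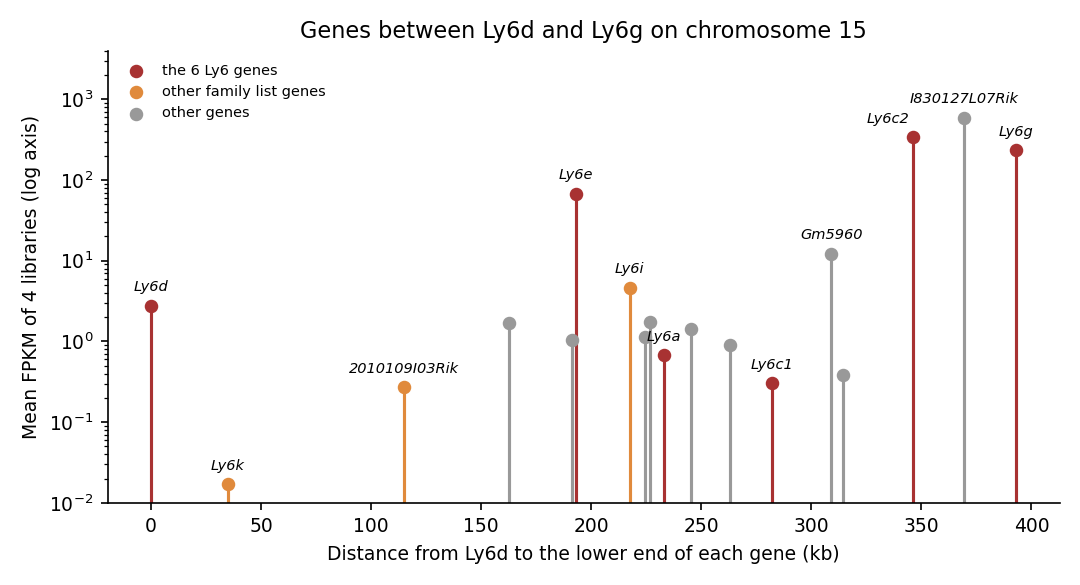
Mean FPKM over the 4 libraries (log axis) of the 18 genes between *Ly6d* and *Ly6g* on chromosome 15, placed by the distance of their lower end from that of *Ly6d* in kb. The 3 most abundant genes, *Ly6c2*, *I830127L07Rik* and *Ly6g*, lie next to each other at the far end, whereas *Ly6c1* and *Ly6a* are below 1 FPKM.

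The promoters of the Ly6C and Ly6G genes are shown because nearly identical genes had such different levels. RefSeq promoter windows (GRCm38.p6) were found for 3 of the 6 members, and the 250 bases before each RefSeq start are given 5′ to 3′ on the strand of the gene. They are chr15:75048838-75049087 on the minus strand for *Ly6c1*, chr15:75111972-75112221 on the minus strand for *Ly6c2* and chr15:75155011-75155260 on the plus strand for *Ly6g*. The annotation used above starts *Ly6g* at 75155240, so the last bases of its window lie inside the gene as annotated there. Capitals mark the letters GAGGAAGT, a form of the site bound by the myeloid factor PU.1, and TATAAA, the TATA box.
Ly6c1: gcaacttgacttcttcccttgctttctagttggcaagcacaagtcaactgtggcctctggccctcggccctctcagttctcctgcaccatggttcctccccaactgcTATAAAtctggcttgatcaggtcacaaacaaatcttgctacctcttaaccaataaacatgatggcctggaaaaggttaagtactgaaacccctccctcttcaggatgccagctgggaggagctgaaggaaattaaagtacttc
Ly6c2: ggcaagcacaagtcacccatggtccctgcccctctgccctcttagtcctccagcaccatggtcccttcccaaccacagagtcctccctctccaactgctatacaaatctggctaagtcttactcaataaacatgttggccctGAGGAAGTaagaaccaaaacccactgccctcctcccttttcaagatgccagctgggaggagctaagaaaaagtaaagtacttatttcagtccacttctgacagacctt
Ly6g: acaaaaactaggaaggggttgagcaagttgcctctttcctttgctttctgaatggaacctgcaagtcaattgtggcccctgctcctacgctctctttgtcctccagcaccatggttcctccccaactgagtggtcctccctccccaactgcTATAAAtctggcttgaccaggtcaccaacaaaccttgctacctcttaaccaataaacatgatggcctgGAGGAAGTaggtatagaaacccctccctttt
The letters GAGGAAGT, chosen after the sequences were seen and searched on both strands, occurred once in the windows of *Ly6c2* and *Ly6g*. They did not occur in that of *Ly6c1*, although the shorter GAGGAA does, on the other strand. The contrast rests on that choice of letters and says nothing about the levels of the genes. GAGGAAGT occurred in 2.44% of 27025 promoter windows of the same length. TATAAA occurred once in *Ly6c1* and *Ly6g* and not in *Ly6c2*, and in 12.97% of all windows. The interferon-linked STAT motif TTCNNNGAA, found in 7.18% of all windows, had no match in the 3 windows. Where the windows could be aligned, the *Ly6c1* promoter was identical to that of *Ly6g* at 172 of 229 positions (75.1%) and to that of *Ly6c2* at 166 of 232 positions (71.6%). A match of letters is a description and no evidence of binding.

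The levels of other cell type markers are given beside *Ly6g* and *Ly6c2*. The late neutrophil list, which also holds *Cd177*, was split in direction. Of 20 tested late neutrophil genes 6 were higher and 6 lower at an unadjusted p under 0.05, with a median of -0.056. Of all tested genes 11.4% were higher and 4.95% lower at that p. The calgranulin genes *S100a8* and *S100a9* were lower, the former at 32243 and 21503 FPKM against 13010 and 12062. The chemokine receptor gene *Cxcr2* was higher, at 199 and 179 FPKM against 230.3 and 317, as was the growth factor receptor gene *Csf3r*, at 81.5 and 80.3 FPKM against 104 and 140.0. Of 13 tested early neutrophil genes 4 were higher and 1 lower by the same measure, with a median of 0.23. The lower gene was the granule gene *Camp*, at 19301 and 17673 FPKM against 9260 and 7948. None of these passed adjustment. The summed level was 118253 and 85947 FPKM for the late list and 76194 and 75821 for the early list in the controls, against 60379 and 56574, and 69511 and 53782, in the knockout libraries. Most of the late sum came from *S100a9*, *S100a8* and *Stfa1*, and most of the early sum from *Ngp*, *Camp* and *Ltf*. *Ngp* stood at 43779 and 43834 FPKM against 46573 and 35443, with overlapping groups. A higher mean in the knockout libraries was found for 9 of the 20 late and 8 of the 13 early genes, against 6510 of all 10779 tested genes. The part of these neutrophil genes in the *Ly6g* value was not tested.

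Of 18 tested monocyte genes 16 had a higher mean in the knockout libraries, 4 of them at an unadjusted p under 0.05, and the median was 0.45 against 0.092 over all tested genes. Of all 10779 tested genes 6510 had a higher mean. At that p 11.4% of them were higher and 4.95% lower. *Csf1r*, the receptor for the monocyte growth factor, stood at 40.9 and 33.0 FPKM against 45.6 and 113, and *Ccr2*, a chemokine receptor of Ly6C-high monocytes, at 25.0 and 20.0 FPKM against 20.5 and 34.01. *Cd14*, a receptor for lipopolysaccharide, stood at 123 and 65.0 FPKM against 151 and 439. The summed level of the list was 1126 and 1231 FPKM in the controls and 1741 and 1948 in the knockout libraries. A large part of these sums came from *Chil3*, the most abundant gene of the list. It stood at 322 and 599 FPKM against 962 and 437, and its groups overlapped. Of the 18 genes 6 had non-overlapping groups with the higher values in the knockout libraries, against 33.6% of all tested genes. Without knockout replicate 2, in which *Csf1r* and *Cd14* were highest, 11 of 18 monocyte genes had a higher mean, 2 of them at that p, and the median was 0.075 against 0.091 over all tested genes. *Adgre1*, the gene for F4/80, which the study stained with Ly6C and Ly6G, stood at 7.27 and 5.37 FPKM against 4.64 and 10.03, and its groups overlapped. Of 16 tested macrophage genes 3 were higher and 1 lower at an unadjusted p under 0.05.

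Markers of cells outside the myeloid lineages were mostly lower in the knockout libraries. Of 17 tested erythroid genes 16 had a lower mean, 9 at an unadjusted p under 0.05, and the median was -0.67. Of all 10779 tested genes 4269 had a lower mean. At that p 4.95% of them were lower and 11.4% higher. For the hepatocyte list 10 of 12 were lower, 2 at that p, with a median of -0.34, and for T and NK cells 5 of 6 were lower, 3 at that p. Endothelial genes had a median of 0.0031, plasmacytoid dendritic cell genes a median of 0.10, and only 2 of 9 epithelial genes reached the filter. No listed marker found in the files was at 0 in all 4 libraries. The setting that changed the sign of *Ly6c2* removed the erythroid and hepatocyte genes and also brought the libraries to a common FPKM total. The totals as deposited were 491983 and 457127 FPKM in the controls against 412778 and 403900. In no library did the erythroid list sum to more than 3912 FPKM or the hepatocyte list to more than 164 FPKM. Which of these steps moved the sign was not tested. Under this setting *Ly6g* was -0.58 and *Ly6e* 0.81. Genes that build and attach the GPI anchor, on which all Ly6 antigens depend, had a median of -0.083, with 1 of 20 tested genes higher and none lower at an unadjusted p under 0.05.

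The genes whose profile over the 4 libraries was most like that of each member were sought among 3816 genes (3817 for *Ly6d*) with a mean of at least 10 FPKM, by the distance between their centred log2 values. For *Ly6g* the nearest were a gene listed under the date-like symbol 1-Sep, then *Kif21b* and *2810001G20Rik*. *Kif21b*, a kinesin, stood at 14.6 and 19.4 FPKM against 11.1 and 7.86. Within a distance of 0.2 of *Ly6g* lay 5 genes. For *Ly6e* the nearest were *Arhgef3*, *Ppp1r3d* and *Pld4*, and 48 genes lay within that distance. *Arhgef3*, a guanine nucleotide exchange factor, stood at 27.8 and 24.4 FPKM against 33.4 and 50.9. The flat profile of *Ly6c2* was shared by many genes, with 501 within that distance and *Por*, *Hdgf* and *Lrrc40* nearest. For *Ly6d* 221 genes lay within it, with *Atg5*, *Slc31a2* and *Ints12* nearest. The distance of each member from a flat profile was 0.140 for *Ly6c2*, 0.314 for *Ly6d*, 0.752 for *Ly6e* and 0.934 for *Ly6g*. The number of genes within 0.2 fell as this distance rose, so these numbers do not show that a profile is particular. Over 4 libraries such likeness is a description only.

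Across the processing settings the direction of *Ly6g*, *Ly6e* and *Ly6d* did not change, and that of *Ly6c2* changed under 1. *Ly6c2* ranged from -0.36 to 0.094, *Ly6g* from -1.05 to -0.53, *Ly6e* from 0.31 to 0.90 and *Ly6d* from -0.44 to -0.15. The extremes of *Ly6g* and *Ly6e* came from leaving out single libraries. No setting brought the adjusted p of a tested member below 0.146, the value for *Ly6e* with erythroid and hepatocyte genes removed (limma).

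**Figure D5:**
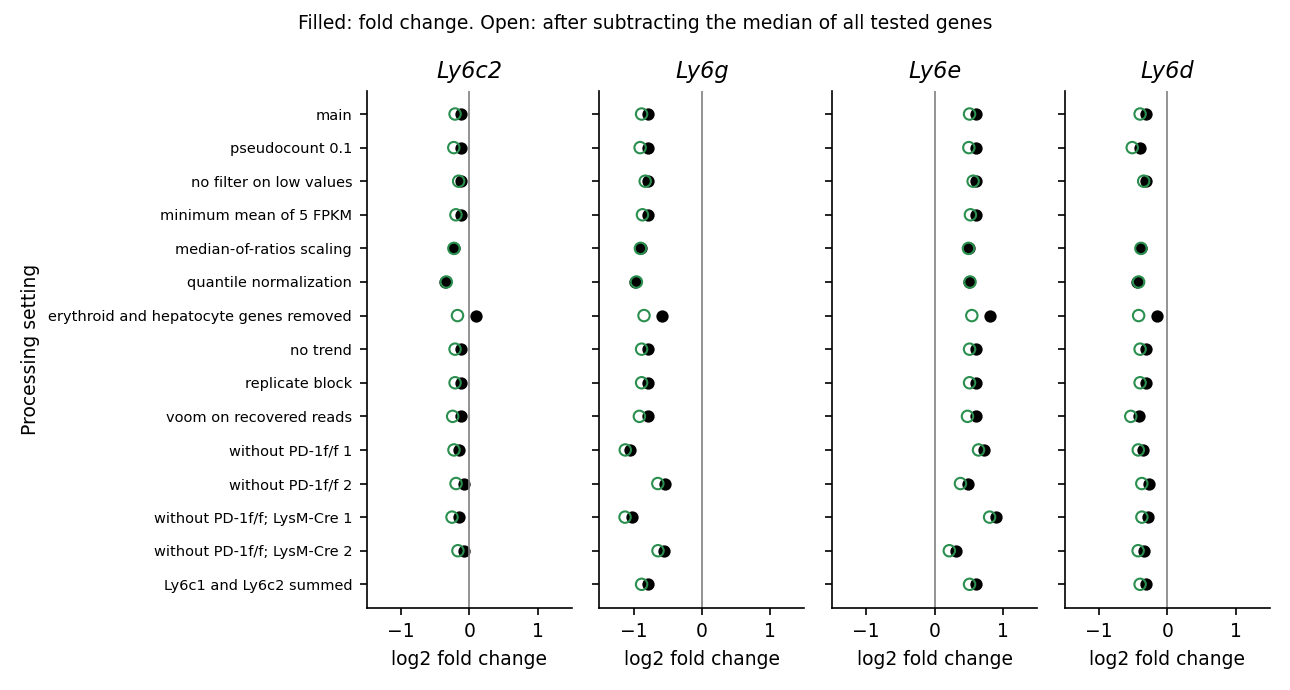
Log2 fold change of the 4 tested Ly6 genes (knockout against control) under each processing setting. Filled points are the fold change and open points the fold change minus the median of all tested genes, and *Ly6c2* crosses 0 only for the filled point with erythroid and hepatocyte genes removed. A missing point marks a setting that left the gene out, such as the minimum of 5 FPKM for *Ly6d*.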

How the data were processed

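RNA-seq of 4 libraries labelled as myeloid cells, 2 wt (PD-1f/f) and 2 cko (PD-1f/f; LysM-Cre), was analysed. The authors deposited FPKM per gene (reads divided by exon length and library total, called RPKM in the methods), 1 library per file. The submitters' processing notes name Bowtie2 2.2.3, TopHat2 2.0.12, HTSeq 0.6.0 and the build mm9, with no roles given. The gene positions are nevertheless those of GRCm38, since 92.6% were identical to GENCODE M21, and coordinates are given in that build. Strand settings of the counting are not given in the sources used here. For 91.3% of the genes, the 6 members included, FPKM were whole multiples of 1 read (tolerance 0.02 reads), which gave the read numbers and totals. For single libraries 95% Clopper-Pearson limits are given, which take in the error of counting alone.

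Groups were compared with limma 3.58.1 in R 4.3.3 (lmFit, eBayes with a trend, no covariates) on log2(FPKM + 1) for the 10779 genes that averaged 1 FPKM or more, with Benjamini-Hochberg adjustment over all of them. Fold changes on this scale understate those of low genes. The fit was tested on simulated data. Alternatives were a pseudocount of 0.1, no filter or a minimum of 5 FPKM, and scaling by quantiles or by median-of-ratios factors. In another, hepatocyte and erythroid genes were dropped and the libraries then brought to a common FPKM total. Further ones were no trend, a replicate block, voom on the recovered reads of genes averaging 10 reads, *Ly6c1* and *Ly6c2* summed, and each library left out. Levels per principal transcript, and marker lists without single libraries, were added after the data were seen. Shared windows were counted against all GENCODE M21 transcripts, coding sequences were aligned with Biopython 1.88, and promoters came from RefSeq. Tables and figures used Python 3.11.15 and matplotlib 3.10.9.

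The members and gene lists were chosen with earlier results of these data known. Named are all members, family genes that pass the filter, up to 4 list genes of highest mean, the 3 genes of nearest profile and *Pdcd1*, *Itgam*, *Ptprc* and *Lyz2*. *Ddx3y*, *Xist*, *Adgre1*, *Csf1r*, *Ccr2*, *Cxcl10*, *Csf3r*, *Cxcr2* and *I830127L07Rik* were named after their values were seen.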

Additional observations from a re-analysis of the deposited data

How the results depend on the processing

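With 2 libraries per group, each carried much weight. Over the alternatives, of the tested members *Ly6c2* was reversed once, to 0.094 with erythroid and hepatocyte genes removed (limma, adjusted p = 0.732, adjusted p from 0.311 to 0.878 over its alternatives). That setting also brought the libraries to a common FPKM total, and the median of all tested genes moved from 0.092 to 0.27. The untested *Ly6c1* moved from 0.27 to 0.95 with a pseudocount of 0.1, which weighs its few reads more. Without single libraries *Ly6c2* ranged from -0.16 to -0.076, *Ly6c1* from 0.18 to 0.36, *Ly6g* from -1.05 to -0.53 and the log2 ratio of Ly6C to Ly6G from 0.45 to 0.90.

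No member passed a threshold under any alternative. Over all genes, 0 passed the adjusted threshold with limma and 2 with voom. The unadjusted threshold was passed by 247 genes, by 126 with a minimum mean of 5 FPKM, where 5813 genes were tested, and by 131 to 462 when single libraries were left out, with 147 without control replicate 1, 462 without knockout replicate 1 and 131 without knockout replicate 2.

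The groups share replicate numbers, and the labels do not say whether these pair the libraries. Over the tested genes the deviations from the group means correlated at r = -0.163. With 2 libraries per group this value cannot show or exclude a pairing. With the replicate number as a block *Ly6g* stayed at -0.79 (limma, unadjusted p = 0.0433, adjusted p = 0.423), *Ly6c2* at -0.12 (adjusted p = 0.820) and *Ly6e* at 0.60 (unadjusted p = 0.0723), 258 genes passed the unadjusted threshold and 0 the adjusted one.

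*Ly6a*, *Ly6c1* and *Ly6d* rest on 4 to 50 reads per library, which limits what these libraries can show for them.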
